A study of Mus musculus with 2 samples.

Results

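The genes described here encode the subunits of SRCAP, TIP60-EP400 and INO80, the 3 nucleosome remodelling complexes that handle the histone variant H2A.Z, together with the H2A.Z chaperone gene Anp32e. They were chosen by name, by membership of these complexes, and make up 32 of the 19720 genes listed. All 32 were found by symbol and reached 20 reads when both libraries were added up, the limit used here for calling a gene measured. Transcripts were sequenced from the telencephalon of an H2A.Z conditional knockout (genotype H2AZcKO) and of its floxed control (H2AZfl/fl), both on the C57BL/6 background. Titles place the tissue at embryonic day 16 and a stage field at embryonic day 12, so the age is uncertain. The dissected region is given as cerebral cortex. The sources used here do not name the Cre driver, the floxed exons or the number of animals behind a library. The control is called WT in its title, although its alleles are floxed. The design text mentions triplicates, but the table has 1 count column for each genotype, so no difference below has a replicate check and no test between genotypes was possible.

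H2A.Z takes the place of H2A in nucleosomes near promoters and enhancers. The remodeller SRCAP swaps H2A for H2A.Z by means of its ATPase. TIP60-EP400 joins an ATPase of the same family to the acetyltransferase KAT5, and so couples exchange to acetylation of histones H4, H2A and H2A.Z. INO80 slides nucleosomes and has been linked, mainly in yeast, to H2A.Z removal, and ANP32E strips H2A.Z from chromatin in mammals. Several subunits serve more than 1 complex, and in developing brain these complexes act in progenitors as well as in neurons.

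The libraries held 9028523 reads in genes for the cKO and 8474545 for the control. H2afz, the targeted gene, had 535 reads in the cKO library and 1152 in the control library, a log2 ratio of -1.16. Its 95% interval was -1.31 to -1.01. Intervals here are exact Clopper-Pearson intervals on how a gene's reads divide between the libraries, and they cover counting error only. All log2 ratios are cKO over control after scaling by TMM. Markers of the dorsal telencephalon and of neural cells fixed for a check of the label were present, with 10 of 10 measured and none at 0 reads. Markers of other tissues differed between the libraries to unlike degrees. None of 5 endothelial and 4 erythroid genes was at least 1.5-fold apart (medians -0.06 and -0.27). Of 5 microglial and macrophage genes, 2 were at least 1.5-fold lower in the cKO. The 8 choroid plexus genes summed to 12.2 CPM in the cKO library and 785 CPM in the control library, with 7 of 7 measured ones at least 1.5-fold lower, and Kl not measured. The 8 meningeal and fibroblast genes summed to 16.1 and 250.1 CPM in cKO and control, with all 8 at least 1.5-fold lower. The 8 diencephalic genes summed to 243 and 92.3 CPM, with 6 at least 1.5-fold higher and Shox2 at 0 reads in the control. The part of these differences in the ratios below was not tested. In bulk tissue, fewer cells of a type and less RNA per cell cannot be told apart.

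None of the 32 subunit genes was at least 1.5-fold apart between the cKO and the control library. Among all 14366 measured genes the share at least 1.5-fold apart was 8.95%, with 3.52% higher and 5.43% lower in the cKO. The members are well covered genes, with 238 to 6066 reads each over both libraries. Among the 9479 genes with at least 238 reads that share was 1.52%, with 0.833% higher and 0.686% lower. A count of 0 of 32 is near that share. That set is called genes of like depth below, although it has no upper limit and runs to 105686 reads, against 6066 for the members. The member ratios ran from -0.16 for Ino80d to 0.31 for Ino80c on the log2 scale. Their median was 0.02, and that of the genes of like depth was 0.02 too. Scaling by library total shifts each ratio by -0.03, which puts the member median at -0.0198 and those of SRCAP and of TIP60-EP400 at -0.0024. The latter value is the ratio of Ruvbl1, the median gene of both lists. The middle 50% of members lay between -0.09 and 0.11, and the middle 50% of genes of like depth between -0.09 and 0.11 as well. The 95% interval of each of the 32 members lay inside a 1.5-fold difference either way. The widest bounds were 1.49-fold higher for Ino80c and 1.38-fold lower for Srcap. With DESeq2 size factors the upper bound for Ino80c was 0.60 on the log2 scale, just past 1.5-fold. At a lower limit of 0.32 either way on the log2 scale the count was also 0 of 32, against 20.9% of measured genes and 7.62% of genes of like depth. With DESeq2 size factors 2 members passed this limit, Ino80c at 0.33 and Ing3 at 0.33. These intervals say nothing of the spread between animals.

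**Figure D1:**
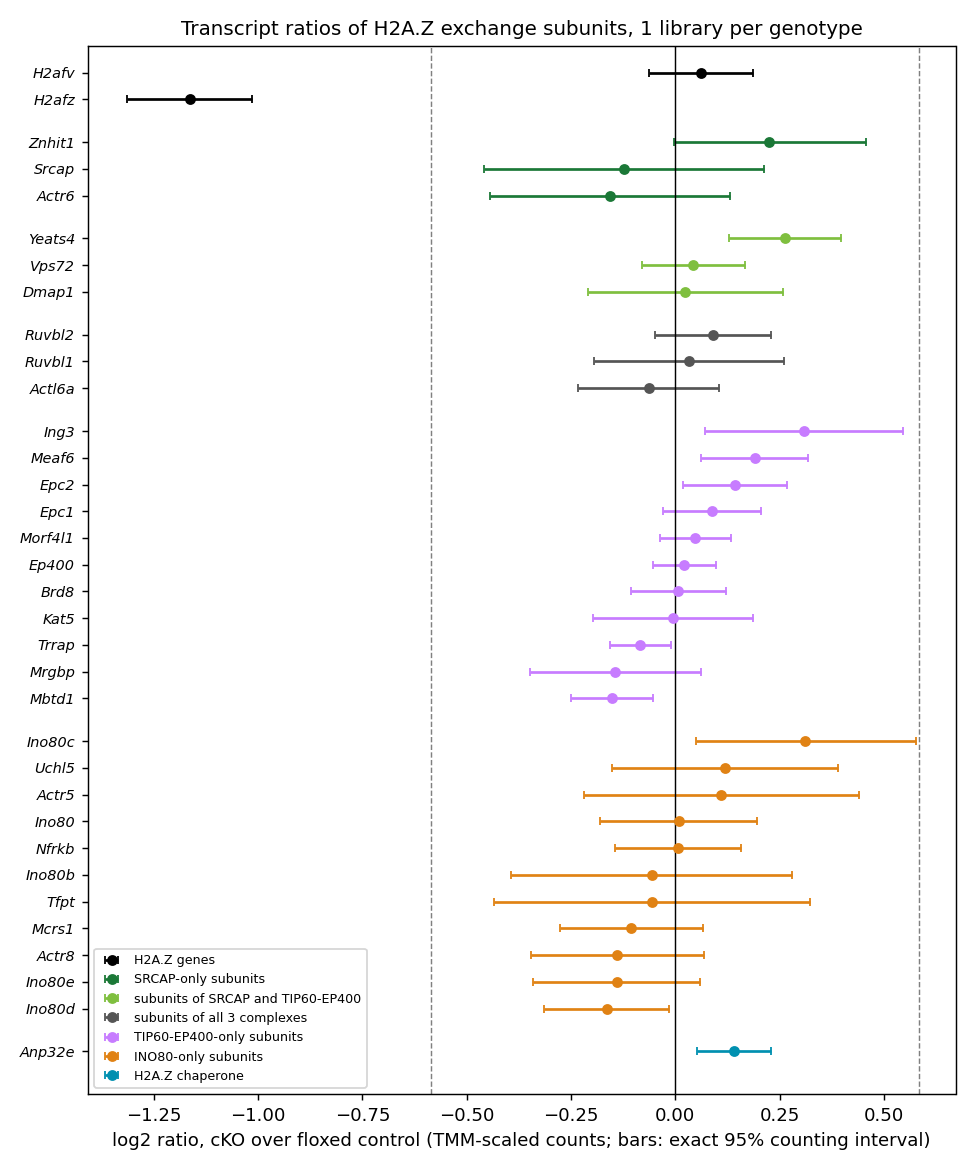
Log2 ratio of cKO over floxed control (x axis) for H2afz, H2afv and the 32 members (y axis), grouped by the complexes that use them. Points are single-library ratios, bars are exact 95% counting intervals and dashed lines mark 1.5-fold. H2afz stands at -1.16 and every member lies between -0.16 and 0.31.

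For 9 of the 32 members (28.1%) the interval excluded a ratio of 1, against 25.5% of genes with at least 238 reads and 21.8% of all measured genes. Of these, 6 were higher in the cKO (18.8% of members, against 16.4% of genes of like depth and 12.5% of measured genes). The other 3 were lower (9.38%, against 9.13% and 9.3%). These shares are near the background, so the count says little about the exchange genes as a set. The 6 higher members were Ino80c, Ing3, Yeats4, Meaf6, Epc2 and Anp32e, and the 3 lower ones were Ino80d, Mbtd1 and Trrap. Apart from the chaperone gene Anp32e they came from all 3 complexes, and no complex had more than 4 on 1 side. With a 99% interval Yeats4, Meaf6 and Anp32e on the higher side and Mbtd1 on the lower side were left.

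**Figure D2:**
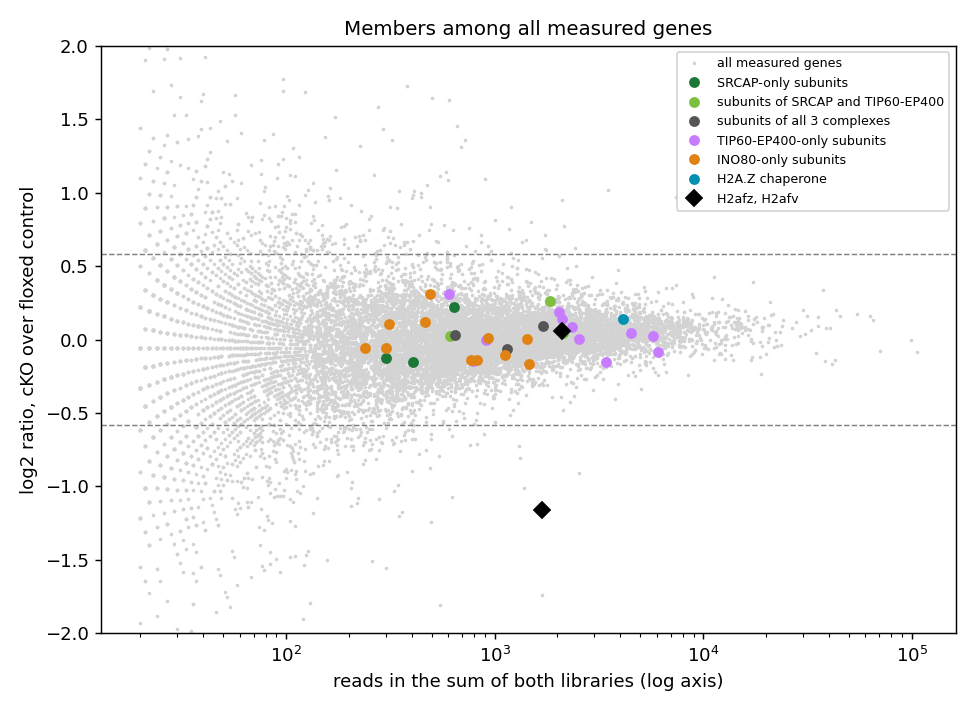
Log2 ratio of cKO over floxed control (y axis) against the reads of a gene in the sum of both libraries (log x axis), for all measured genes in grey and the members in colour by complex. The axis is cut at 2 either way, which leaves out 109 genes. The members lie within the grey cloud, whose spread narrows with depth, and H2afz, at -1.16, lies below its main body.

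As background for the counts by direction below, 5173 of the 9479 genes of like depth had ratios above 0 and 4306 below. The SRCAP complex was represented by 9 genes, of which 6 had ratios above 0 and 3 below, with a median of 0.03. Srcap encodes its ATPase and lies on chromosome 7 from 127511983 to 127561219 (GRCm38). Its read counts were 147 in the cKO library and 154 in the control library, a log2 ratio of -0.12 (interval -0.46 to 0.21). Actr6 encodes an actin-related protein found in this complex alone. It had 196 reads in the cKO and 210 in the control, a log2 ratio of -0.16 (-0.44 to 0.13). Znhit1 encodes a zinc finger subunit needed for H2A.Z deposition, on chromosome 5 from 136982164 to 136988021. Its read counts were 349 and 287 in cKO and control, and its log2 ratio was 0.23 (-0.0038 to 0.46) whose lower bound sits next to level. The 3 genes used by SRCAP alone thus pointed both ways, none of them beyond counting error under TMM scaling. With DESeq2 size factors the Znhit1 interval excluded level by a small margin (0.02 to 0.48).

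The 3 SRCAP genes that also serve TIP60-EP400 had ratios above 0 with TMM, although Dmap1 was at -0.01 with scaling by library total. Vps72 encodes YL1, the subunit that grips the H2A.Z-H2B dimer itself. It had 1105 reads in the cKO library and 1031 in the control library, a log2 ratio of 0.04 (-0.08 to 0.17). Dmap1, named for the binding of its protein to DNMT1, had 314 and 297 reads in cKO and control, at 0.02 (-0.21 to 0.26). Yeats4 encodes GAS41, whose YEATS domain binds acylated histone lysines, and lies on chromosome 10 from 117215142 to 117224507. The count was 1018 reads in the cKO and 816 in the control, 1.20-fold higher (1.09 to 1.32), and was beyond counting error with each of the 3 scalings. In the authors' deposited table Yeats4 has an adjusted p of 0.0143 and is not marked as significant. No gene of this group approached the 1.5-fold limit.

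Promoter sequence is shown for Yeats4, the member with the highest level per length, and for Mbtd1, the lower member whose call held at the 99% interval and with each of the 3 scalings. Each window runs from 250 bases before to 50 bases after an annotated start in the RefSeq promoter table (GRCm38.p6), 5′ to 3′ on the gene's own strand. Capitals mark matches to the motifs searched, which for Yeats4 are an NRF1 motif and GC boxes and for Mbtd1 GC boxes. Yeats4 lies at chr10:117224458-117224757 on the minus strand and the first Mbtd1 window at chr11:93885600-93885899 on the plus strand.
Yeats4: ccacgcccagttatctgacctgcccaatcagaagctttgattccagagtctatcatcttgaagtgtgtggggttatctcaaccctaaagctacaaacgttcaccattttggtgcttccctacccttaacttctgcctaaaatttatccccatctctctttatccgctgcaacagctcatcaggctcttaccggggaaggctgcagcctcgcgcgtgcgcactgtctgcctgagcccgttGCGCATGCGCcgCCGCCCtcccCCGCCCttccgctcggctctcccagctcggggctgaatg
Mbtd1: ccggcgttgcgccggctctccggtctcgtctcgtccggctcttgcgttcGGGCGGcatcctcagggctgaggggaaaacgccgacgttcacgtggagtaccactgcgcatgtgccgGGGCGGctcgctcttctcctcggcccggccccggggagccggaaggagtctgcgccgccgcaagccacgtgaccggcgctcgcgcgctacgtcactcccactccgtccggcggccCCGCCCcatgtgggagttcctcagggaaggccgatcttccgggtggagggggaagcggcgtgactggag

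Windows on chromosome 18, which carries Brd8, Epc1 and Ino80c, were left out of the search and of the backgrounds below. Of the 32 members, 25 had an entry among the windows used, with 31 windows in all, since some genes have more than 1 start. Actr5, Actr8, Ino80d and Vps72 had no entry under these symbols. The windows were rich in CpG, with a median ratio of observed to expected CpG of 0.876, against 0.745 in 13777 windows of measured genes and 0.384 in all 32851 windows. The motifs searched on both strands were CCGGAAGT (ETS), GGGCGG (GC box), the NRF1 motif and the YY1 motif, whose factor is itself a partner of INO80. No match overlapped a match to another of these motifs. A GC box occurred in 20 of 31 windows (64.5%), against 62.2% of windows of measured genes and 35.7% of all windows. The ETS motif occurred in 6 windows of 5 members (19.4%), against 7.52% and 3.89%. Those 5 were Actr6, Dmap1, Ino80b, Kat5 and Mcrs1, whose ratios ran from -0.16 to 0.02. The Actr6 windows overlap and hold the same ETS site, which is counted in each. The same holds for the GC box of the Ing3 windows. The NRF1 motif occurred in 1 window, that of Yeats4 (3.23%, against 1.91% and 0.971%). The YY1 motif also occurred in 1 window, that of Znhit1 (3.23%, against 1.84% and 0.852%). A match is a stretch of letters and was not tied to binding in these cells.

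The 3 subunits shared by SRCAP, TIP60-EP400 and INO80 were level. Ruvbl1 and Ruvbl2 encode AAA+ ATPases that form a joint ring and help assemble these and other large complexes. Ruvbl1 had 334 reads in the cKO library and 314 in the control library, a log2 ratio of 0.03 (-0.19 to 0.26). Ruvbl2 had 897 and 810 reads in cKO and control, at 0.09 (-0.05 to 0.23). Actl6a, which encodes the actin-like protein BAF53a, also used by BAF complexes of neural progenitors, had 574 and 577 reads, at -0.06 (-0.23 to 0.11). All 3 intervals included level. Actl6b, which takes the place of Actl6a in BAF complexes of postmitotic neurons, had 1043 reads in the cKO and 984 in the control, at 0.03 (-0.10 to 0.15). Side by side, 10 pan-neuronal markers had a median of 0.19 and 10 markers of radial glia and cycling progenitors a median of -0.08.

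TIP60-EP400 had 17 genes, 12 with ratios above 0 and 5 below, with a median of 0.03. This median and that of SRCAP are the same value, the ratio of the shared gene Ruvbl1, so they are not separate summaries. Genes used by 1 complex alone had medians of -0.12 for SRCAP, 0.02 for TIP60-EP400 and -0.06 for INO80. The enzymes and the scaffold of TIP60-EP400 were near level. Ep400, the ATPase gene, on chromosome 5 from 110664373 to 110770717, had 2969 reads in the cKO library and 2812 in the control library, a log2 ratio of 0.02 (-0.05 to 0.10). Kat5, the acetyltransferase gene, had 462 and 446 reads in cKO and control, at -0.0057 (-0.20 to 0.19). Trrap, a large scaffold of the PI3K-related kinase family without kinase activity, had the most reads of all members, 3004 in the cKO and 3062 in the control. Its log2 ratio of -0.08 (-0.16 to -0.01) was beyond counting error, and with DESeq2 size factors the interval reached level. The authors' deposited table gives Trrap an adjusted p of 0.0223 and does not mark it as significant.

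Around KAT5, the small module that carries the acetyltransferase onto nucleosomes comprises EPC1 or EPC2, ING3 and MEAF6. Ing3 encodes a PHD finger protein that reads trimethylated H3K4 and lies on chromosome 6 from 21949571 to 21976038. Counts were 340 reads in the cKO library and 264 in the control library, 1.24-fold higher (1.05 to 1.46). Meaf6, a small subunit shared with other MYST acetyltransferases, had 1101 and 928 reads in cKO and control, or 0.19 on the log2 scale (0.06 to 0.32). Epc2 had 1127 and 981 reads, 1.10-fold higher (1.01 to 1.20), and with scaling by library total its interval included level. Its paralog Epc1 had 1239 and 1121 reads, or 0.09 (-0.03 to 0.21). Kat5 was at -0.0057 (-0.20 to 0.19), an interval that overlaps those of each of these genes. The genes of this module were all above 0, from 0.09 to 0.31 on the log2 scale, although the Epc1 interval included level. This grouping was made after the values were seen and was not tested.

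The remaining genes used by TIP60-EP400 alone are readers and linkers. Mbtd1 encodes a protein with MBT repeats that binds methylated H4, on chromosome 11 from 93885852 to 93946985. Its counts were 1655 reads in the cKO library and 1768 in the control library, 1.11-fold lower (1.04 to 1.19). In the authors' deposited table its adjusted p is 0.00398, again without a mark as significant. Mrgbp, which joins MORF4L1 to the complex, had 383 and 407 reads in cKO and control, at -0.14 (-0.35 to 0.06). Morf4l1, a chromodomain gene, had 2346 and 2182 reads, at 0.05 (-0.04 to 0.13). Brd8, a bromodomain gene, had 1298 and 1242 reads, at 0.01 (-0.11 to 0.12). Mbtd1 was the only 1 of these 4 whose interval excluded level.

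INO80 had 14 genes, 7 with ratios above 0 and 7 below, with a median of -0.03. Ino80, the ATPase gene, on chromosome 2 from 119373042 to 119477687, had 478 reads in the cKO library and 457 in the control library, a log2 ratio of 0.01 (-0.18 to 0.20). Ino80c encodes the subunit related to yeast Ies6, which sits with ACTR5 on the nucleosome-gripping module, and lies on chromosome 18 from 24104757 to 24121953. It had counts of 275 and 213 in cKO and control, 1.24-fold higher (1.03 to 1.49). Actr5 itself had 165 and 147 reads, at 0.11 (-0.22 to 0.44). Their intervals overlap widely. Ino80b, the counterpart of yeast Ies2, had 150 reads in each library, at -0.06 (-0.39 to 0.28). Actr8, an actin-related subunit that binds linker DNA, had 375 and 397 reads, at -0.14 (-0.35 to 0.07).

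The subunits that animals added to INO80 lay within the same narrow range. Ino80d, on chromosome 1 from 62958418 to 63114667, had 705 reads in the cKO library and 760 in the control library, 1.12-fold lower (1.01 to 1.24). With DESeq2 size factors its interval reached level. Ino80e had 400 and 424 reads in cKO and control, at -0.14 (-0.34 to 0.06). Mcrs1 had 551 and 570 reads, at -0.11 (-0.28 to 0.07), and Tfpt had 119 in each library, at -0.06 (-0.44 to 0.32). Uchl5, a deubiquitinase that also works on the proteasome, had 245 and 217 reads, at 0.12 (-0.15 to 0.39). Nfrkb, whose protein holds UCHL5 inactive within INO80, had 731 and 700 reads, at 0.01 (-0.15 to 0.16). Of the 11 genes used by INO80 alone, 1 was beyond counting error on each side.

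Anp32e, the chaperone gene, lies on chromosome 3 from 95929246 to 95947390, the chromosome that also carries Vps72, Actl6a and the targeted H2afz. It had 2217 reads in the cKO library and 1933 in the control library, 1.10-fold higher (1.04 to 1.17). Its interval excluded level with each of the 3 scalings, at a size far below that of the targeted gene. H2afv, which encodes the second H2A.Z protein, had 1095 and 1009 reads in cKO and control, at 0.06 (-0.06 to 0.19). Together H2afz and H2afv had 1630 reads in the cKO and 2161 in the control, a log2 ratio of -0.46 (-0.56 to -0.37).

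Proportions within pairs of related genes do not depend on scaling. H2afz made up 32.8% (exact interval 30.5 to 35.2) of the H2A.Z reads in the cKO library and 53.3% (51.2 to 55.4) in the control library. Ruvbl1 made up 27.1% (24.7 to 29.7) of Ruvbl1 and Ruvbl2 reads in the cKO and 27.9% (25.3 to 30.7) in the control. Epc1 made up 52.4% (50.3 to 54.4) of its pair in the cKO and 53.3% (51.2 to 55.5) in the control. For these genes and for the pair of Actl6a and Actl6b, the intervals of the libraries overlapped. Morf4l1 made up 41.7% (40.4 to 43.0) of the reads of Morf4l1 and Morf4l2 in the cKO and 42.9% (41.6 to 44.3) in the control. Morf4l2 encodes the paralogous MRG protein, and its pair overlapped too. A change in the balance of paralogs was therefore not detectable at this depth outside the H2A.Z pair.

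**Figure D3:**
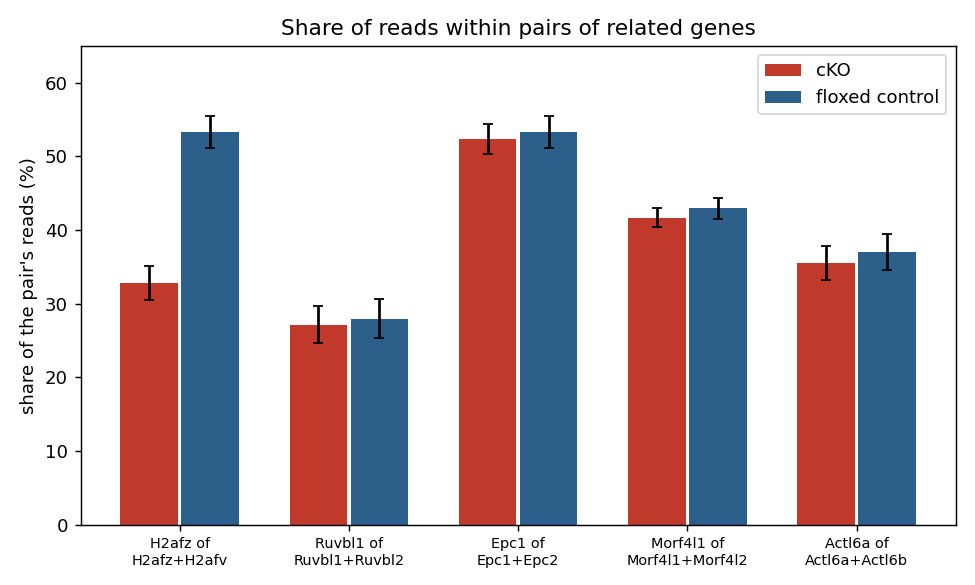
Share of the reads of 5 gene pairs that belong to the first gene (y axis, percent), in the cKO (red, left) and the floxed control (blue, right). Bars are single libraries with exact 95% binomial intervals. H2afz falls short of its control share by far more than the intervals, whereas the other pairs overlap.

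Levels of different members were compared per length, as TMM-scaled CPM per kb of merged GENCODE M21 exons. Members ranged from 1.04 to 80.7 in the cKO library and from 1.14 to 67.2 in the control library, with medians of 13.5 and 14.2. The median of all measured genes was 6.25 in the cKO and 6.33 in the control. Yeats4 (80.7 in the cKO, 67.2 in the control) and Anp32e (69.7 and 63.2) had the highest levels per length in both libraries. Ruvbl2 at 34.7 and 32.5 and Vps72 at 34.04 and 33.03 followed, and exchanged places between the libraries. Of the ATPases, Ep400 had 23.8 and 23.5, Ino80 had 7.88 and 7.83 and Srcap had 1.04 and 1.14. The INO80-only genes had a median of 7.88 in the cKO and 7.83 in the control, and the TIP60-EP400-only genes one of 16.1 and 17.1. Between the libraries, 14 members had the same place in both libraries and none moved by more than 3 places. Merged exons include those of rare isoforms, which lowers the level per length of genes with many models. Each level comes from 1 library, so neighbours in this order cannot be separated beyond replicate spread.

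**Figure D4:**
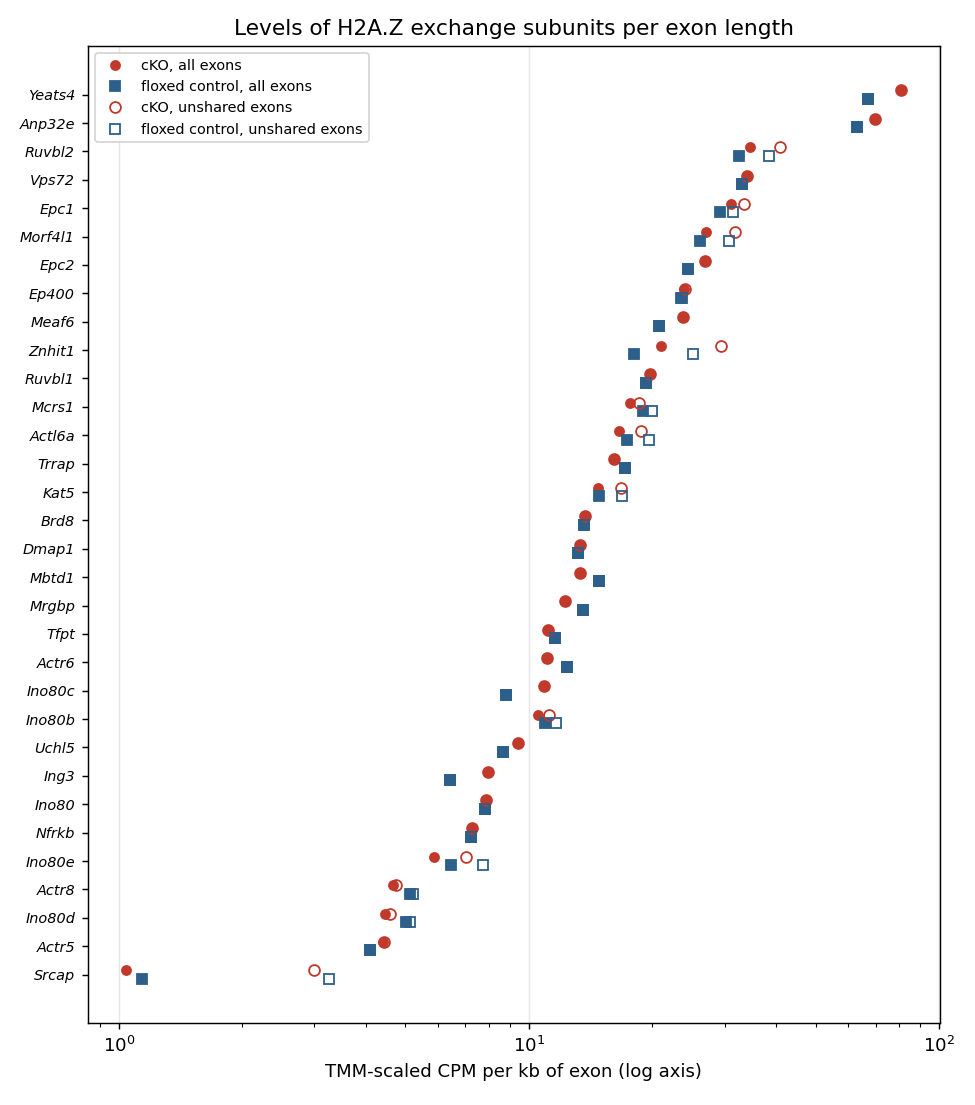
Level of each member (y axis, ordered by cKO level) as TMM-scaled CPM per kb of exon (log x axis), in the cKO (red circles) and the floxed control (blue squares). Open symbols divide the same CPM by the length of exon shared with no other gene. Srcap is lowest on both scales, and Yeats4 and Anp32e are highest.

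Srcap stood apart in level rather than in ratio. Of its 15783 exon bases, 10260 are also exon bases of another gene model, and 9738 (61.7%) are shared on the same strand. The main sharer is Gm42715, a gene model that runs along most of Srcap and beyond its end and was listed with 26 reads in the cKO library and 27 in the control library. Per kb of unshared exon the Srcap level was 2.98 in the cKO and 3.25 in the control, a measure chosen after seeing the data, and still the lowest of the members. Only the length is limited to unshared bases in this measure. Any reads counted in shared exons stay in it and raise it. The sources used here do not say whether reads that fit more than 1 gene were left out of the counts, so the level of Srcap is uncertain. Its ratio compares the same stretches in both libraries. Znhit1 (28.4%, with Plod3), Ino80e (16.4%), Ruvbl2 (15.4%), Morf4l1 (15.4%), Kat5 (12.1%) and Actl6a (11.6%) were the other members with over 10% of exon bases shared, all of it on the opposite strand. The strand setting is also unstated there, so reads in those stretches cannot be assigned with certainty. Gene copies took few reads: Gm3086, a Ruvbl1-like pseudogene, had 4 and 2 in cKO and control, and Gm4835, Gm5564 and Gm7420, Morf4l1-like pseudogenes, had 1 to 8 per library.

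**Figure D5:**
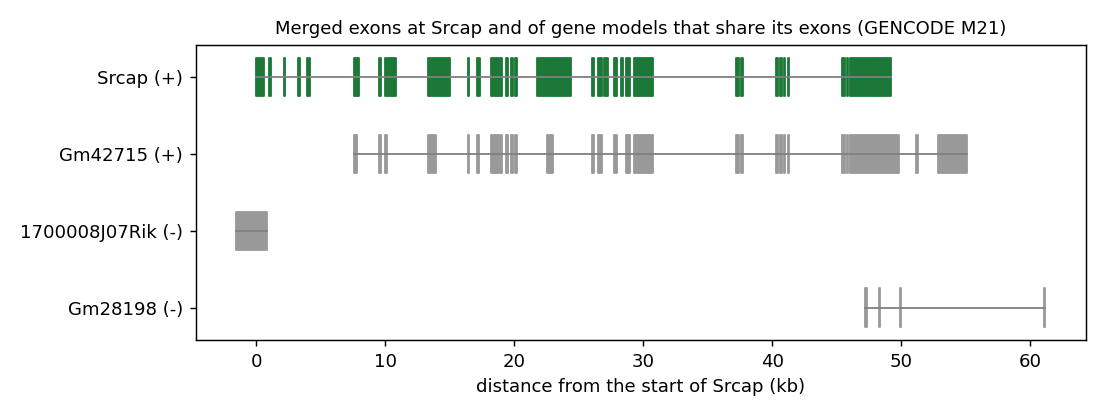
Merged exons (boxes) of Srcap and of the 3 gene models that share exon bases with it, by distance from the Srcap start in kb (x axis), with the strand in brackets. Gm42715 covers most Srcap exons on the same strand.

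The deposited table marks none of the 32 members as significant, against 1.61% of all listed genes. Of these, 3 (9.38%), Mbtd1, Trrap and Yeats4, have an adjusted p under 0.05 in the authors' deposited table, against 11.3% of the genes with at least 238 reads. The sources used here do not name the test behind these values. Annotation terms in the same table assign 24 of the 32 members to the Ino80, Swr1 or NuA4 complexes. Actr6, Ino80d, Ino80e, Mbtd1, Mrgbp, Srcap, Tfpt and Vps72 carry none of these terms there. The terms are also given to 9 genes outside the 32, so the lists overlap in part. Those are Yy1, Msl3l2 with 93 reads in the cKO library and 80 in the control library, 4933408B17Rik with 28 and 24, and 6 genes with under 20 reads in the sum.

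Other chaperones, readers and modifiers of H2A.Z and partners of the complexes formed a separate list of 10, all of them measured. None was at least 1.5-fold apart, against 1.52% of genes of like depth and 8.95% of measured genes. Of the 10, 9 had ratios above 0 and 1 below with TMM, and the median was 0.10. Among genes of like depth, 5173 of 9479 were above 0, and their median was 0.02. Nap1l4, at 0.03, falls below 0 with scaling by library total. The interval excluded level for 4, all of them higher in the cKO, against 16.4% of genes with at least 238 reads and 12.5% of measured genes higher. These 4 had 5411 to 6778 reads over both libraries, where intervals are narrow. Neither share is matched to that depth, so the count of 4 cannot be read as an excess. With scaling by library total that count was 2, since the intervals of Bptf (-0.02 to 0.14) and Brd2 (-0.01 to 0.12) then included level. These, named after their values were seen, were Nap1l1, a histone chaperone gene, at 0.13 (0.06 to 0.20), Morf4l2 at 0.12 (0.05 to 0.20), Bptf, the NURF remodeller gene, at 0.10 (0.02 to 0.17), and Brd2, a reader of acetylated nucleosomes, at 0.09 (0.02 to 0.16). Setd6, a lysine methyltransferase gene, was furthest below 0 at -0.26 (-0.64 to 0.12), and Smyd3, another methyltransferase gene, furthest above at 0.25 (-0.05 to 0.55). Jazf1 was at 0.14 (-0.12 to 0.41). Yy1, the DNA-binding partner of INO80, had 810 reads in the cKO library and 744 in the control library, at 0.07 (-0.08 to 0.21). With library-total scaling the median of this list was 0.07, still above 0.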

How the data were processed

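Total RNA of 2 samples, 1 cKO and 1 floxed control, was sequenced after TruSeq library preparation, per the labels' protocols. The submitters' processing notes name TopHat2 2.0.12, Bowtie2 2.2.3, HTSeq 0.6.0 and, as the genome, mm9. Positions listed for genes match GRCm38 instead: 78.9% equal those of GENCODE M21, as do 26 of the 32 members, and coordinates are given as in the table.

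The deposited table holds unnormalised counts of reads for each gene, with a column for each genotype, per the file headers. The authors also deposited CPM, a fold ratio and a log2 ratio of control over knockout, and p-values and adjusted p-values of a test that the sources used here do not name. Symbols matched 19616 of 19720 identifiers.

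Counts were scaled by TMM (edgeR 4.0.16, R 4.3.3) and log2 ratios taken with a prior of 0.5 read. Exact 95% Clopper-Pearson intervals cover counting error only, and reads without molecular identifiers are not independent molecules. No test between genotypes was run. Exon overlaps come from GENCODE M21. DESeq2 1.42.0 gave alternative size factors. Intervals came from scipy 1.17.1 and tables from pandas 2.3.3 and numpy 2.4.6 under Python 3.11.15, figures from matplotlib 3.10.9, and the interval calculation was tested on simulated counts. Members, lists and alternatives were chosen with earlier results of these data known. All members are reported, with fullest values for the catalytic, H2A.Z-binding and shared subunits and for those beyond counting error. The plan for each other list was up to 4 genes furthest from 0. In the list of other H2A.Z genes, those beyond counting error and some more were named as well.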

Additional observations from a re-analysis of the deposited data

How the results depend on the processing

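The count of members at least 1.5-fold apart was 0 under each alternative, including a fold of 2. At a limit of 0.32 either way on the log2 scale it was 0 with TMM and with library-total scaling and 2 with DESeq2 size factors. The count beyond counting error was 6 higher and 3 lower. With DESeq2 size factors the counts were 7 higher and 1 lower. With a 99% interval they were 3 higher and 1 lower. Among the 14 members that overlap no other gene they were 5 higher and 1 lower, with fewer members counted. With library-total scaling, which shifts each ratio by -0.03, they were 5 higher and 3 lower. H2afz kept its direction, from -1.197 to -1.139. Of 128 member ratios recomputed, none moved beyond its counting error. The other scalings shift each ratio by -0.03 or 0.02, less than any member's counting error, so rescaling could move none that far. In 13 cases near 0 the sign changed, none of them called. The deposited CPM repeat the sign changes of library-total scaling, so these cases count some members more than once. Medians changed sign in 6 of 51 cases: those of all members, SRCAP, TIP60-EP400 and the shared subunits with library-total scaling (-0.0198, -0.0024, -0.0024 and -0.0024), SRCAP when limited to its own 3 genes (-0.12) and INO80 without overlapping genes (0.02). The repeated -0.0024 is a single value, the ratio of Ruvbl1, which is the median of each of those lists. A read minimum of 100, or none, changed no value, since each member has more reads. With library-total scaling, 2 of the 10 other H2A.Z genes were higher beyond counting error, against 4 with TMM, and 2 of the 7 RUVBL partners lower, against 1. The combined limit and scaling, these list counts and Srcap per unshared exon kb were chosen after seeing the data. No paired analysis was possible because each genotype has 1 count column.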

Other observations

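RUVBL1 and RUVBL2 also work in the R2TP chaperone, and 7 genes of that and related assembly steps were measured. None was at least 1.5-fold apart (1.52% of genes of like depth), 3 had ratios above 0 and 4 below, and the median was -0.05. The interval excluded level for 1 on the higher side and 1 on the lower, against 16.4% and 9.13% of genes of like depth. Rpap3, the R2TP adaptor gene that recruits HSP90, had 400 reads in the cKO library and 311 in the control library, a log2 ratio of 0.31 (0.09 to 0.53). Telo2, which helps stabilise PI3K-related kinases and TRRAP, had 324 and 370 reads in cKO and control, at -0.25 (-0.47 to -0.03). Tti1, its partner, was at -0.21 (-0.45 to 0.03), an interval that excludes level with scaling by library total (-0.48 to -0.0095), and Nufip1, an R2TP cofactor gene, at 0.14 (-0.13 to 0.41).

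Of the members, 5 (15.6%) start head to head with another protein-coding gene within 1000 bases, against 15.3% of measured protein-coding genes. Brd8, at 0.01, has its start 12 bases from that of Kif20a, a mitotic kinesin gene with 470 reads in the cKO library and 368 in the control library, at 0.30 (0.10 to 0.50). Tfpt, at -0.06, has its start 56 bases from that of the splicing factor gene Prpf31, which had 567 and 627 reads, at -0.20 (-0.37 to -0.04). Mbtd1 pairs with Utp18 at -0.05 (-0.24 to 0.15), Uchl5 with Trove2 at 0.02 (-0.09 to 0.13) and Ino80e with Hirip3 at 0.02 (-0.17 to 0.21). These genes were looked at for position and not for their values.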
